A study of Gossypium hirsutum with 12 samples.

Results

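Of the 24029 probe sets of a cotton leaf microarray that remain when the 103 AFFX control rows are left out, 40 differed between the cultivars Sicot 53 and Sicala 45 in the same direction at both growth temperatures, 17 higher in Sicot 53 and 23 higher in Sicala 45. A probe set is a group of short DNA probes that reads 1 transcript or several related ones. The 40 were chosen from their measured values on log2(signal + 16). Each had a difference of group means, Sicot 53 minus Sicala 45, of at least 1 log2 unit and of the same sign at 42 and 32 °C. All 3 arrays of one cultivar lay above all 3 of the other at each temperature, and the mean signal over the 12 arrays was 50 or more. Their cultivar differences, and the changes in those differences with temperature, are therefore given as a description without a test. The change with temperature averaged over both cultivars was not used in the choice and was tested.

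Upland cotton (Gossypium hirsutum) leaf RNA was measured on 12 Affymetrix Cotton arrays, 3 in each of 4 groups. These were Sicot 53 at 42 °C by day, Sicala 45 at 42 °C by day, Sicot 53 at 32 °C by day and Sicala 45 at 32 °C by day, all with nights of 25 °C. All plants grew in field soil in a growth cabinet, had settled for 4 d at the 32 °C setting before treatment, and were sampled at first square, when flower buds first show, from a young fully expanded leaf. The series' title asks which molecular events lie behind the cultivars' differences in physiology and heat tolerance. Whether the 3 leaf samples of a group were taken from different plants is not stated, and a p-value here reflects only how far these samples spread, which may be technical. Plants for 42 °C entered the cabinet after those for 32 °C had left it, and temperature and cabinet run cannot be told apart.

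A transcript that differs between cultivars in every environment measured is commonly traced to inherited differences in gene copies, in promoters or in the factors that act on them. Upland cotton is an allotetraploid, with gene copies from a pair of ancestral genomes, so near-identical transcripts are common and a cultivar can carry or express one copy without the other. Arrays read each transcript through short probes of a fixed sequence, and the deposited signals merge the probes of a set. A lower transcript level and weaker binding of a cultivar's own sequence to those probes cannot be told apart from these values. In whole leaves, fewer cells of a type and less RNA per cell cannot be told apart either.

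The labelled tissue was checked by named genes. Rubisco activase RCA1, which keeps the carbon-fixing enzyme of leaves active, read 29529 to 45772 in Sicot 53 and 20925 to 44130 in Sicala 45, near the top of the range. Of the cotton fibre markers, E6 read 413 to 956 in Sicot 53 and 646 to 1240 in Sicala 45, Fb2 read 323 to 693 in Sicot 53 and 326 to 836 in Sicala 45, and EXPA1 stayed under 50 on every array. In the seed list, vicB_At, LegA and 1 probe set of LEGB stayed under 50, whereas the other LEGB set read 54.5 to 231 in Sicot 53 and 104 to 207 in Sicala 45. The late embryogenesis genes of that list were bright, with Lea5-D at 535 to 15566 in Sicot 53 and 774 to 9465 in Sicala 45, and Lea14-A at 2373 to 8189 in Sicot 53 and 3029 to 6595 in Sicala 45. The part of fibre or seed transcripts in the members' differences was not tested. The 3'/5' signal ratio of the ubiquitin gene ubq11, a measure of RNA or cDNA integrity, was 7.99 to 41.5 in Sicot 53 and 6.39 to 24.6 in Sicala 45 at 42 °C, and 4.73 to 6.39 in Sicot 53 and 5.82 to 10.7 in Sicala 45 at 32 °C. Every array had been scaled to 1 trimmed mean, and array medians ran between 86.1 and 115. Poly-A spikes, bacterial transcripts added before labelling, averaged 9.22 to 10.07 log2 units on the Sicot 53 arrays and 8.89 to 9.60 on the Sicala 45 arrays.

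**Figure D1:**
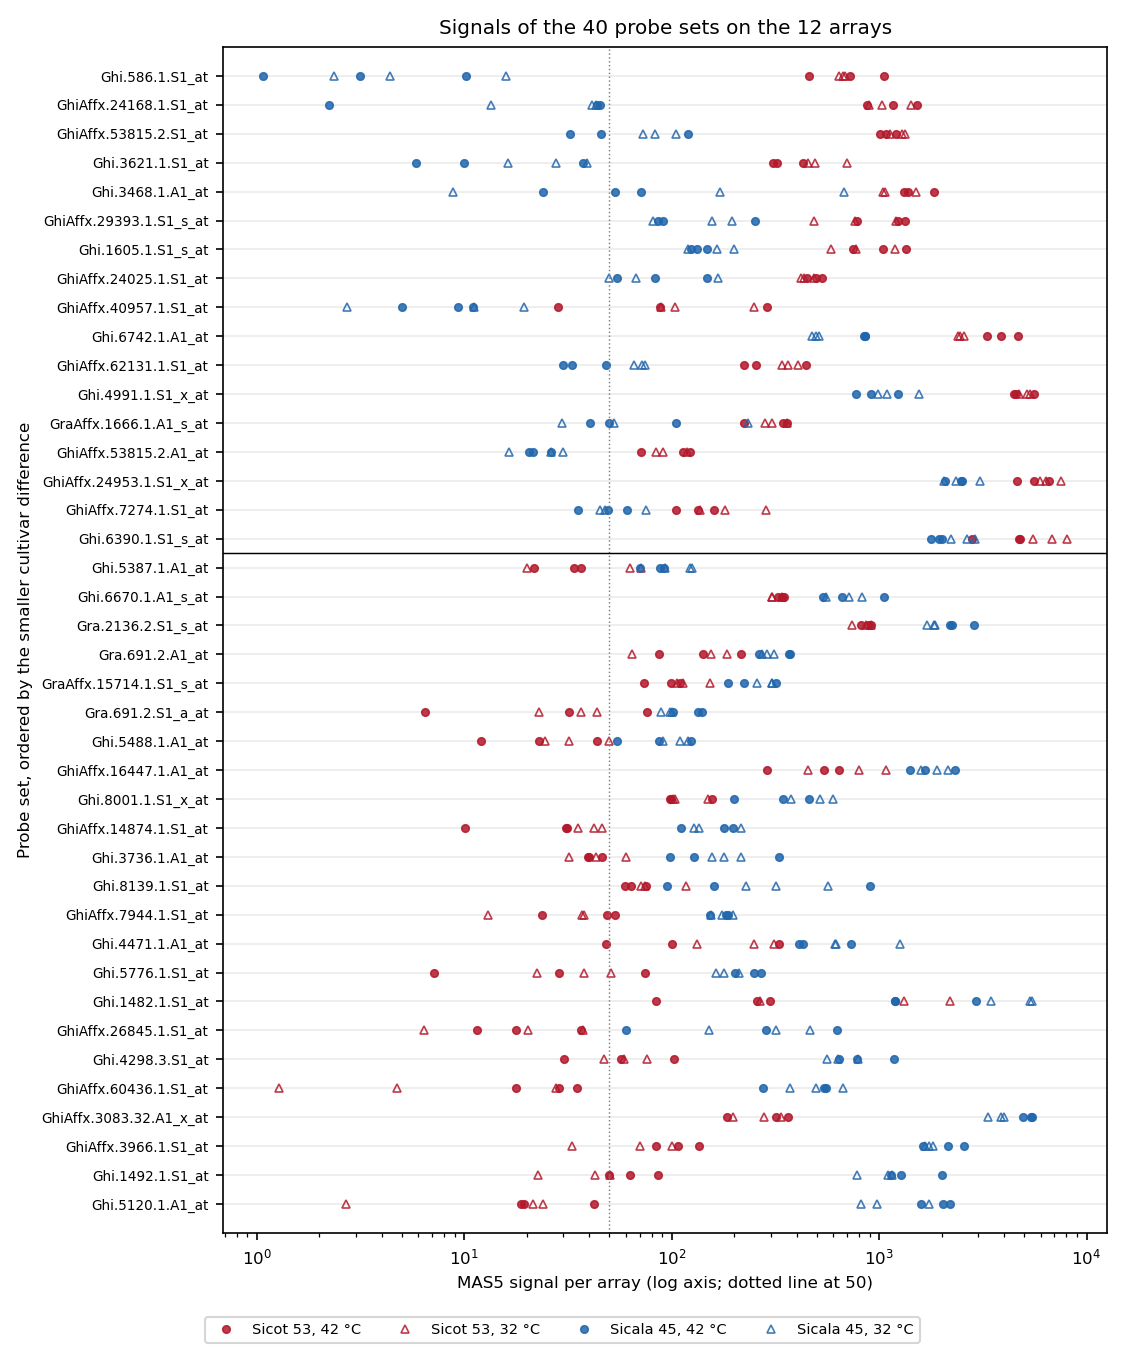
MAS5 signal (x axis, log scale) of each of the 40 probe sets (rows) on the 12 arrays, with Sicot 53 in red, Sicala 45 in blue, filled circles for 42 °C and open triangles for 32 °C. The 17 rows above the horizontal line are higher in Sicot 53 and the 23 below it are higher in Sicala 45. In 35 of the 40 rows the colours do not overlap at all. The choice of members already demanded this within each temperature, and the share over all tested probe sets was not computed.

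The largest constant difference in favour of Sicot 53 was that of Ghi.586.1.S1_at, a probe set with no gene name here. Its signals were 1052, 459 and 720.1 in Sicot 53 against 1.08, 3.14 and 10.2 in Sicala 45 at 42 °C, and 688, 667 and 640.3 in Sicot 53 against 2.37, 15.9 and 4.40 in Sicala 45 at 32 °C. On all 6 Sicala 45 arrays it stayed at or below 15.9, and its log2 differences of +5.14 ± 0.33 at 42 °C and +4.90 ± 0.33 at 32 °C (SE of the model) move with the pseudocount. GhiAffx.24168.1.S1_at read 1516, 1162 and 870 in Sicot 53 against 2.23, 45.1 and 43.7 in Sicala 45 at 42 °C, and 891, 1033 and 1430.3 in Sicot 53 against 13.4, 42.9 and 41.5 in Sicala 45 at 32 °C. It too was bright in every Sicot 53 leaf sample and dim in every Sicala 45 sample, with differences of +4.85 ± 0.45 at 42 °C and +4.58 ± 0.45 at 32 °C. For Ghi.3621.1.S1_at the signals were 432, 320.5 and 309 in Sicot 53 against 9.97, 37.5 and 5.83 in Sicala 45 at 42 °C, and 699.6, 452 and 493 in Sicot 53 against 16.3, 38.9 and 27.7 in Sicala 45 at 32 °C. Its differences were +3.55 ± 0.35 at 42 °C and +3.70 ± 0.35 at 32 °C.

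GhiAffx.53815.2.S1_at kept a low level in Sicala 45, over 50 on 4 of 6 arrays. It read 1208, 1013 and 1076 in Sicot 53 against 32.4, 45.9 and 119 in Sicala 45 at 42 °C, and 1340.4, 1126 and 1291 in Sicot 53 against 83.2, 105 and 72.8 in Sicala 45 at 32 °C, which gives differences of +3.91 ± 0.32 at 42 °C and +3.63 ± 0.32 at 32 °C. Ghi.3468.1.A1_at was even in Sicot 53 and uneven in Sicala 45, with 1317, 1830.2 and 1382 in Sicot 53 against 23.9, 71.5 and 53.4 in Sicala 45 at 42 °C, and 1072, 1049.9 and 1508 in Sicot 53 against 675, 8.79 and 170.2 in Sicala 45 at 32 °C. Within Sicala 45 at 32 °C its highest array was 76.8 times its lowest, the widest ratio in that group, and without replicate 2 of that group its difference at 32 °C was +1.75, against +3.04 with all arrays. The arrays of the pair GhiAffx.29393.1.S1_s_at and Ghi.1605.1.S1_s_at fell in the same order in every group but Sicala 45 at 42 °C. This likeness was picked out after their values were seen. GhiAffx.29393.1.S1_s_at read 1238, 1336 and 787 in Sicot 53 against 91.2, 252 and 86.1 in Sicala 45 at 42 °C, and 765, 483 and 1205 in Sicot 53 against 196, 81.3 and 157 in Sicala 45 at 32 °C. Ghi.1605.1.S1_s_at read 1048, 1346 and 749 in Sicot 53 against 124, 132 and 148 in Sicala 45 at 42 °C, and 769.7, 589 and 1190.4 in Sicot 53 against 199, 120.2 and 165 in Sicala 45 at 32 °C. In Sicot 53, replicate 2 was the brightest array at 42 °C and replicate 3 the brightest at 32 °C for both probe sets. Both IDs end in _s_at, the ending for sets that can match several related transcripts, and whether they read 1 transcript was not tested.

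Of the other members leading in Sicot 53, GhiAffx.24025.1.S1_at averaged 493 ± 40.0 in Sicot 53 against 95.3 ± 48.2 in Sicala 45 at 42 °C (SD, n = 3 each), and 448 ± 36.3 in Sicot 53 against 94.6 ± 63.1 in Sicala 45 at 32 °C. GhiAffx.40957.1.S1_at was dimmer, with 287, 28.2 and 88.3 in Sicot 53 against 11.0, 9.36 and 5.03 in Sicala 45 at 42 °C, and 104, 249 and 89.1 in Sicot 53 against 2.74, 19.4 and 11.1 in Sicala 45 at 32 °C. The brightest sets higher in Sicot 53 were well above 50 in Sicala 45 too. GhiAffx.24953.1.S1_x_at averaged 5588 ± 967 in Sicot 53 against 2359 ± 234 in Sicala 45 at 42 °C, and 6629 ± 830.3 in Sicot 53 against 2488 ± 521 in Sicala 45 at 32 °C. For Ghi.4991.1.S1_x_at the means were 4869 ± 622 in Sicot 53 against 977 ± 236 in Sicala 45 at 42 °C, and 5088 ± 315 in Sicot 53 against 1214 ± 302 in Sicala 45 at 32 °C. Ghi.6390.1.S1_s_at is described with the temperature changes. The remaining 3 members higher in Sicot 53 differed 2.31 to 5.91-fold at 42 °C and 2.95 to 4.45-fold at 32 °C, Sicot 53 over Sicala 45 on the log2(signal + 16) scale.

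Among the 23 probe sets higher in Sicala 45, Ghi.5120.1.A1_at had the largest constant difference. It read 18.8, 42.3 and 19.5 in Sicot 53 against 1591, 2208 and 2031 in Sicala 45 at 42 °C, and 21.6, 24.0 and 2.70 in Sicot 53 against 972, 814 and 1731 in Sicala 45 at 32 °C. No Sicot 53 array passed 42.3 and no Sicala 45 array fell under 814, and the log2 differences were -5.54 ± 0.36 at 42 °C and -5.21 ± 0.36 at 32 °C. Ghi.1492.1.S1_at followed with 86.3, 49.9 and 63.2 in Sicot 53 against 2008, 1142 and 1270.4 in Sicala 45 at 42 °C, and 22.6, 50.5 and 42.5 in Sicot 53 against 1105, 1153 and 786 in Sicala 45 at 32 °C. Its differences were -4.16 ± 0.29 at 42 °C and -4.26 ± 0.29 at 32 °C, and both cultivars kept to their own range at either temperature.

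GhiAffx.3966.1.S1_at read 136, 84.5 and 107 in Sicot 53 against 2553, 2158 and 1635 in Sicala 45 at 42 °C, and 33.0, 70.6 and 100.1 in Sicot 53 against 1809.9, 1656 and 1747 in Sicala 45 at 32 °C. That amounts to a 17.0-fold difference at 42 °C and a 22.2-fold difference at 32 °C on the log2(signal + 16) scale, Sicala 45 over Sicot 53. GhiAffx.3083.32.A1_x_at was the brightest set higher in Sicala 45 and was readable in both cultivars, with 365, 317 and 184 in Sicot 53 against 5446, 4962 and 5394 in Sicala 45 at 42 °C, and 338, 277 and 197 in Sicot 53 against 3868, 4016 and 3334 in Sicala 45 at 32 °C. The lowest Sicala 45 array was 9.13 times the highest Sicot 53 array. GhiAffx.60436.1.S1_at read 35.0, 28.7 and 17.7 in Sicot 53 against 541, 275 and 553 in Sicala 45 at 42 °C, and 1.28, 27.7 and 4.74 in Sicot 53 against 673, 497 and 374 in Sicala 45 at 32 °C, dim on every Sicot 53 array. Ghi.4298.3.S1_at averaged 63.2 ± 36.4 in Sicot 53 against 870.1 ± 280.4 in Sicala 45 at 42 °C (SD, n = 3 each), and 60.4 ± 14.4 in Sicot 53 against 661 ± 118 in Sicala 45 at 32 °C.

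Smaller differences in the same direction were those of Ghi.5776.1.S1_at, with -2.48 log2 units at 42 °C and -1.95 at 32 °C, and Ghi.4471.1.A1_at, with -1.93 at 42 °C and -1.76 at 32 °C. Gra.2136.2.S1_s_at, the third brightest of those higher in Sicala 45, had -1.45 log2 units at 42 °C and -1.09 at 32 °C. Its arrays were among the most even, with 889, 919 and 821 in Sicot 53 against 2874, 2254 and 2189 in Sicala 45 at 42 °C, and 911, 860.4 and 744 in Sicot 53 against 1840.2, 1856 and 1711 in Sicala 45 at 32 °C. The remaining 6 members higher in Sicala 45 differed 2.32 to 4.49-fold at 42 °C and 2.19 to 4.39-fold at 32 °C, Sicala 45 over Sicot 53. The pooled SD within groups was 0.14 log2 units for Gra.2136.2.S1_s_at and 0.13 for Ghi.6742.1.A1_at, the lowest of the 40, and 1.26 for Ghi.3468.1.A1_at, the highest. Its median was 0.42 over the 40 probe sets and 0.40 over the 16820 tested.

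**Figure D2:**
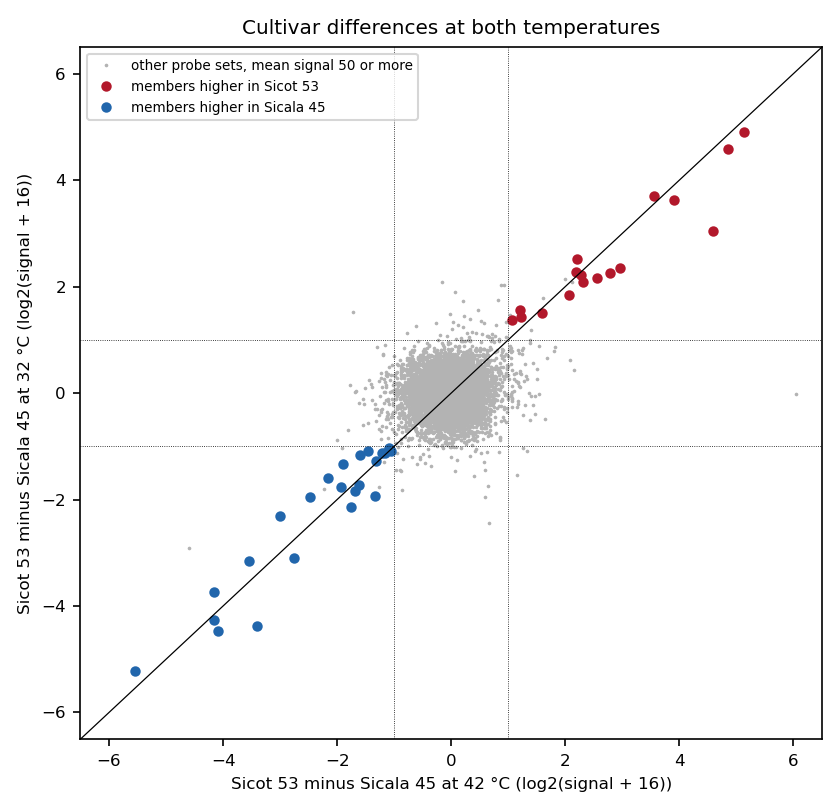
Difference of group means between the cultivars (Sicot 53 minus Sicala 45, log2(signal + 16)) at 42 °C (x axis) and at 32 °C (y axis) for the 40 probe sets (coloured) and the other probe sets with a mean signal of 50 or more (grey). The solid line marks equal differences and dotted lines mark 1 log2 unit; 39 of the 40 points lie within 1 log2 unit of the solid line in y.

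The size of the difference varied widely among the 40. On the log2(signal + 16) scale, the brighter cultivar exceeded the other by 2.08-fold to 46.6-fold at 42 °C (median 4.57) and by 2.04-fold to 37.1-fold at 32 °C (median 4.31). Both highest values are those of Ghi.5120.1.A1_at, dim on all Sicot 53 arrays, and where one cultivar is that dim the fold is set in part by the pseudocount of 16. At least 4-fold differences at both temperatures were found in 20 of the 40, 12 of the 17 higher in Sicot 53 and 8 of the 23 higher in Sicala 45, and at least 8-fold differences in 11, of which 5 were higher in Sicot 53 and 6 in Sicala 45. In 35 of the 40 the 6 arrays of one cultivar all lay above the 6 of the other. The choice of members already demanded this within each temperature, so the count is a description. The share over all tested probe sets was not computed. The ratio of the lowest array of the brighter cultivar to the highest of the dimmer one reached 28.8 for Ghi.586.1.S1_at, 19.3 for GhiAffx.24168.1.S1_at and 19.2 for Ghi.5120.1.A1_at. The 5 sets whose cultivars overlapped across temperatures were GraAffx.1666.1.A1_s_at, Ghi.6390.1.S1_s_at, Ghi.5387.1.A1_at, Ghi.8139.1.S1_at and Ghi.1482.1.S1_at, with the first of them chosen for naming after its values were seen.

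Dim signals on all 6 arrays of the lower cultivar, each under 50, were seen in 10 of the 40, 5 dim in Sicala 45 and 5 dim in Sicot 53. The other 30 passed 50 on at least 1 array of the lower cultivar. Sets higher in Sicot 53 had a median of the 6-array means of 949 in Sicot 53, against 85.2 in Sicala 45, and sets higher in Sicala 45 had 61.8 in Sicot 53, against 417 in Sicala 45. The mean signal over all arrays had a median of 319 for the 40 and 301 for the 16820 tested probe sets.

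A same-sign difference at both temperatures was part of the choice of members. The cultivar differences at the temperatures parted by a median of 0.32 log2 units in the 40 and 0.27 in all 16820 tested. The size of a member's difference at 42 °C minus its size at 32 °C ran between -0.96 and +1.56 log2 units with a median of +0.08, and it was larger at 42 °C in 25 of the 40. In only 1, the uneven Ghi.3468.1.A1_at, did the differences at the temperatures part by 1 log2 unit or more (+4.60 at 42 °C and +3.04 at 32 °C). GhiAffx.60436.1.S1_at came next, with -3.41 at 42 °C and -4.37 at 32 °C. Both sets had arrays under 50 in their lower cultivar. No probe set of the whole table passed limma's test of a cultivar difference in temperature change (0 of 16820 at a Benjamini-Hochberg adjusted p under 0.05, 0% called). At an unadjusted p under 0.05 there were 321 (1.91%), fewer than that threshold would give if no probe set differed. The lack of calls does not show that the cultivars changed alike.

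Only 2 of the 40 have a gene symbol in the annotation used here, against 581 of the 16820 tested (5% and 3.45%). GhiAffx.26845.1.S1_at is assigned to LOC107891056, which RefSeq's gene table also lists as EXPA4 and EXPA13D, an expansin. Expansins are wall proteins that loosen the cellulose network and let growing plant cells extend. The expansin probe set read 11.5, 36.4 and 17.7 in Sicot 53 against 60.4, 285 and 629.5 in Sicala 45 at 42 °C, and 6.42, 20.2 and 37.4 in Sicot 53 against 151, 317 and 464 in Sicala 45 at 32 °C. It was dim on every Sicot 53 array, and in Sicala 45 it spread 10.4-fold at 42 °C between its lowest and highest array, with log2 differences of -2.75 ± 0.67 at 42 °C and -3.09 ± 0.67 at 32 °C. The annotation gives the same gene to a pair of other probe sets, which did not share the pattern. Ghi.704.1.A1_s_at read 36.5, 563 and 102 in Sicot 53 against 30.9, 253 and 203 in Sicala 45 at 42 °C, and 89.9, 47.2 and 164 in Sicot 53 against 81.6, 228 and 245 in Sicala 45 at 32 °C, with log2 differences of +0.13 at 42 °C and -0.79 at 32 °C. Its cultivars overlapped at both temperatures, and Ghi.704.1.S1_at reached at most 56.8 on any array. The probe sets of this expansin gene disagree, and the cultivar difference was seen in 1 of 3.

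Ghi.8139.1.S1_at is assigned to LOC107940712, a protein-coding gene for which the table holds no name. It read 59.4, 63.7 and 75.2 in Sicot 53 against 902, 95.1 and 160.2 in Sicala 45 at 42 °C, and 74.2, 117 and 71.0 in Sicot 53 against 229, 565 and 318 in Sicala 45 at 32 °C. Replicate 1 of Sicala 45 at 42 °C carried much of its difference there, which was -1.68 log2 units with that array and -0.77 without it.

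**Figure D3:**
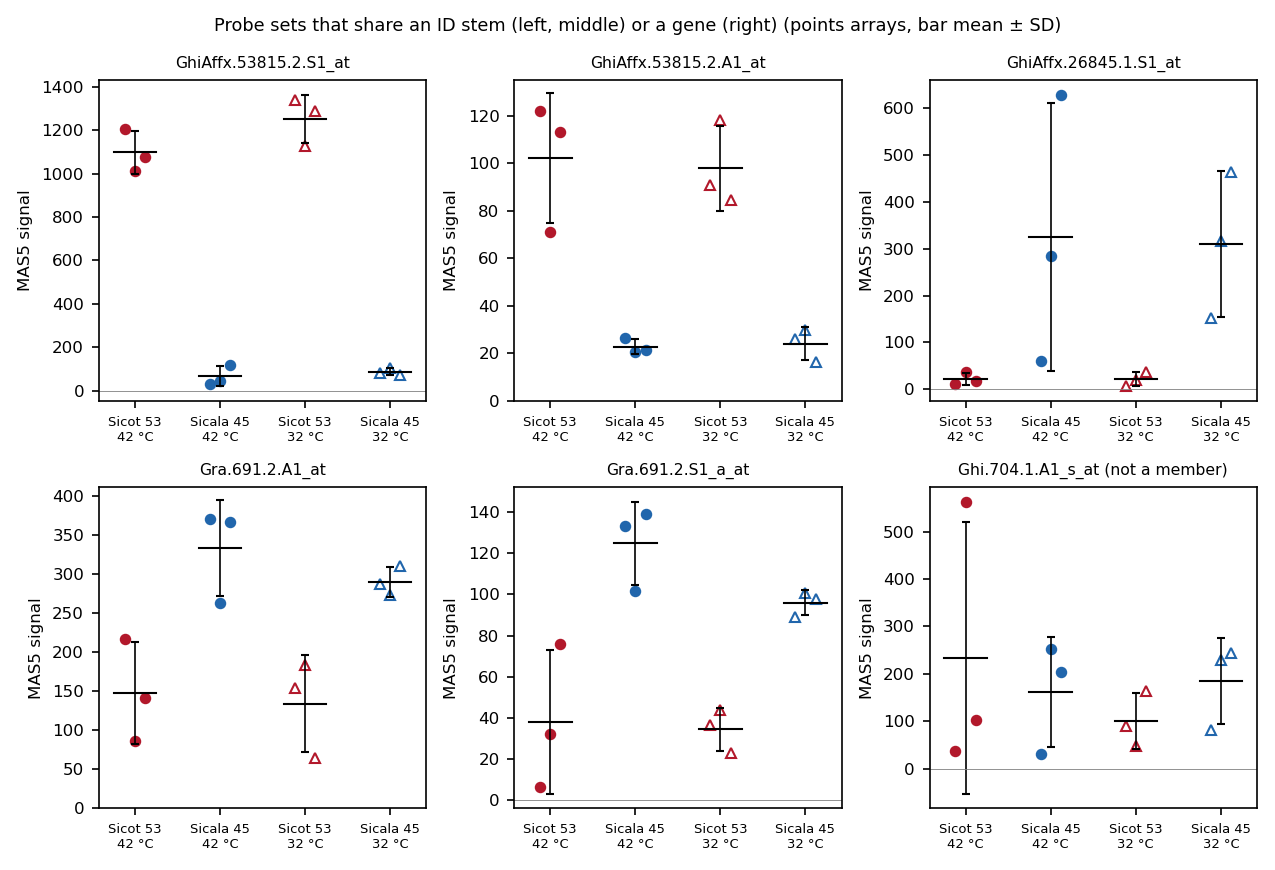
MAS5 signals (y axis, linear) on the 3 arrays of each group (points), with the mean and SD (bars), for ID pairs GhiAffx.53815.2 and Gra.691.2 (left and middle) and for 2 probe sets of the expansin gene LOC107891056 (right). Both sets of each ID pair are higher in the same cultivar, whereas Ghi.704.1.A1_s_at, which is not among the 40, overlaps between the cultivars.

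Among the 40 were 38 distinct ID stems, so 4 probe sets formed 2 pairs that differ in the letter of the last ID part. Members of a pair may read the same locus and are not independent. GhiAffx.53815.2.A1_at read 122, 71.3 and 113 in Sicot 53 against 26.3, 20.5 and 21.4 in Sicala 45 at 42 °C, and 90.9, 118 and 84.5 in Sicot 53 against 26.1, 29.98 and 16.4 in Sicala 45 at 32 °C, higher in Sicot 53 as its partner GhiAffx.53815.2.S1_at was. Gra.691.2.A1_at averaged 148 ± 65.3 in Sicot 53 against 333 ± 61.2 in Sicala 45 at 42 °C (SD, n = 3 each), and 134 ± 62.2 in Sicot 53 against 289.9 ± 18.8 in Sicala 45 at 32 °C. Gra.691.2.S1_a_at averaged 38.1 ± 35.0 in Sicot 53 against 125 ± 20.2 in Sicala 45 at 42 °C, and 34.5 ± 10.5 in Sicot 53 against 95.9 ± 6.13 in Sicala 45 at 32 °C. Both Gra.691.2 sets were lower in Sicot 53. Gra.691.1.S1_at of the same stem had -0.84 log2 units at 42 °C and -0.40 at 32 °C. That set was dim, with a mean signal of 37.9 over the 12 arrays, and its cultivars overlapped at both temperatures.

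Other probe sets of a shared stem, whose later ID parts differ, mostly did not follow. Whether they read the same transcripts was not tested. The stem of GhiAffx.3083.32.A1_x_at holds 23 other probe sets, whose cultivar differences lay between -0.80 and +0.78 log2 units at 42 °C and between -0.87 and +0.78 at 32 °C. The partners of Ghi.3621.1.S1_at, Ghi.3736.1.A1_at and GhiAffx.29393.1.S1_s_at (Ghi.3621.2.A1_at, Ghi.3736.1.S1_at and GhiAffx.29393.1.A1_x_at) were at or under 57.9 on every array, with differences under 1 log2 unit. Ghi.4991.1.A1_at, of the stem of Ghi.4991.1.S1_x_at, had +0.60 log2 units at 42 °C and -0.12 at 32 °C, and Ghi.6670.1.S1_x_at, of the stem of Ghi.6670.1.A1_s_at, -0.37 at 42 °C and -0.51 at 32 °C. Differences past 1 log2 unit were seen in a pair of partners of low signal, both lower in Sicot 53. Ghi.4298.1.A1_at read 2.52, 1.84 and 7.82 in Sicot 53 against 5.31, 46.0 and 33.4 in Sicala 45 at 42 °C, and 7.23, 2.17 and 0.611 in Sicot 53 against 76.9, 28.6 and 27.3 in Sicala 45 at 32 °C, with overlap at 42 °C. Gra.2136.2.A1_at had -1.21 log2 units at 42 °C and -0.29 at 32 °C. Over all 40, IDs ending in plain _at, the ending for sets designed to read 1 transcript, made up 28 (70%) against 50.4% of the 16820 tested, and IDs ending in _s_at 7 (17.5%) against 40.7%. IDs whose last part starts with A made up 13 (32.5%) against 34.9%.

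Temperature was the other factor of the design, and the 40 were next compared between 42 and 32 °C. Averaged over cultivars, 3 of the 40 (7.5%) were called, against 8.8% of all 16820 tested probe sets (limma, Benjamini-Hochberg adjusted p under 0.05), a share near that of the table. Of these, 1 of the 40 (2.5%) rose at 42 °C, against 4.22% of all tested, and 2 (5%) fell, against 4.59%. A change of at least 1 log2 unit was seen in 1 of the 40 (2.5%), against 5.76% of all tested. Arrays at 42 and 32 °C were apart the same way in both cultivars in 2 of the 40, against 8.37% of all tested, and in opposite ways in 0 of the 40, against 0.155%. The other 37 did not pass. Of the 40, 10 were dim on all 6 arrays of their lower cultivar, where the pseudocount of 16 flattens a change. Their averaged change can be dampened by this, and the shares of the 40 and of all tested compare only roughly. A demand that arrays not overlap can favour probe sets of low spread. The median pooled SD within groups was 0.42 log2 units in the 40 and 0.40 in all tested. It cannot show whether low spread was favoured, because dim arrays can widen a member's SD. The median change of the 40 was -0.11 log2 units, against -0.05 for all tested probe sets, and the median size of change was 0.28 log2 units for both.

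**Figure D4:**
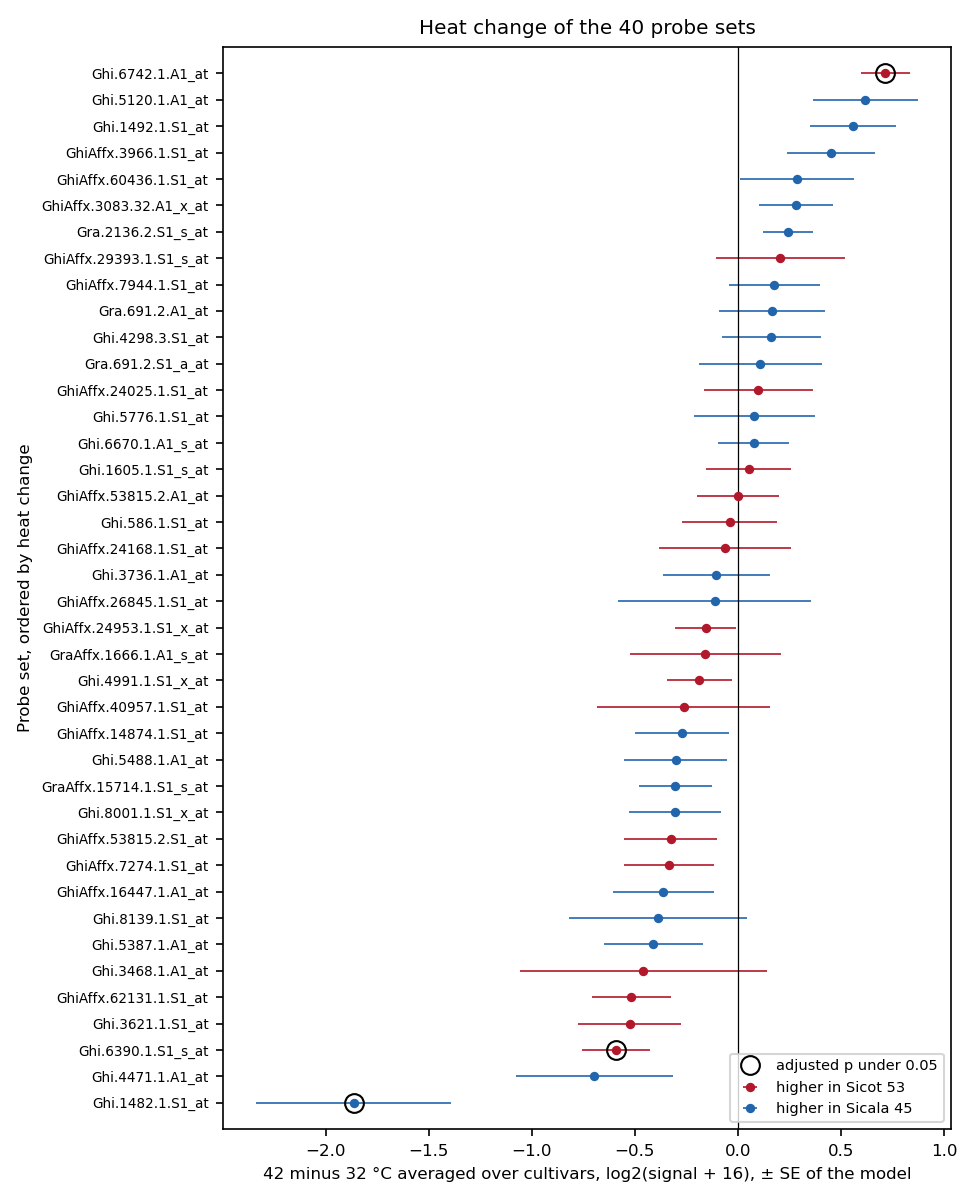
Change from 32 to 42 °C averaged over the cultivars (x axis, 42 minus 32 °C, log2(signal + 16), bars SE of the model) for each of the 40 probe sets (rows), red where higher in Sicot 53 and blue where higher in Sicala 45. Circles ring the 3 that passed the test, and 39 of the 40 changed by less than 1 log2 unit.

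Ghi.6742.1.A1_at was higher at 42 °C in both cultivars (limma within each cultivar, adjusted p = 0.084 in Sicot 53 and 0.041 in Sicala 45). Its cultivar differences were +2.18 log2 units at 42 °C and +2.28 at 32 °C, given without a test. In Sicot 53 it read 3883, 4697 and 3319 at 42 °C against 2565, 2398 and 2446 at 32 °C, and in Sicala 45 857, 856 and 842 at 42 °C against 474, 515 and 497 at 32 °C. The temperatures did not overlap in either cultivar, and the averaged rise was 1.64-fold (log2 change +0.71 ± 0.12 SE, limma adjusted p = 0.00361). Its call held when each of the 12 arrays was left out in turn and without the 2 arrays of highest ubq11 ratio (+0.65, adjusted p = 0.0191), and ended when arrays were scaled to their poly-A spikes (+0.22, adjusted p = 0.292), a scaling that shifts the median change of all tested probe sets to -0.55.

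Ghi.1482.1.S1_at fell most. In Sicot 53 it read 257, 83.8 and 297 at 42 °C against 1325, 2204 and 268 at 32 °C, and in Sicala 45 2929, 1189.6 and 1199 at 42 °C against 5337, 5461 and 3456 at 32 °C. The averaged fall was 3.64-fold (log2 change -1.87 ± 0.47 SE, limma adjusted p = 0.0321), with overlap between the temperatures in Sicot 53 through replicate 3 at 32 °C. Leaving out 1 array ended the call for replicate 2 of Sicot 53 and replicates 2 and 3 of Sicala 45 at 42 °C, and for replicates 1 and 2 of either cultivar at 32 °C (highest adjusted p = 0.080). Replicate 2 of both cultivars at 42 °C had ubq11 ratios over 20, and the change was -1.50 when both were left out (adjusted p = 0.119). Its Sicot 53 arrays at 32 °C reached into the range of its Sicala 45 arrays at 42 °C.

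Ghi.6390.1.S1_s_at, one of the brightest sets in Sicot 53, read 4718, 2819 and 4779 at 42 °C against 6838, 8036 and 5508 at 32 °C in Sicot 53, and 1787, 1936 and 2000.1 at 42 °C against 2903, 2220.2 and 2652 at 32 °C in Sicala 45. Its averaged log2 change was -0.59 ± 0.17 (SE, a 1.51-fold fall, adjusted p of limma 0.0459), with no overlap between the temperatures in either cultivar. The call lay close to the threshold. It ended under median centring (-0.51, adjusted p = 0.0767), without a filter on dim probe sets (adjusted p = 0.061), without the intensity trend (0.064), with the replicate number as a block (0.0652) and without the 2 arrays of highest ubq11 ratio (-0.47, 0.118). It also ended when any array was left out (highest adjusted p = 0.112) except replicate 1 of Sicot 53 at 42 °C or replicate 3 of Sicot 53 at 32 °C.

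**Figure D5:**
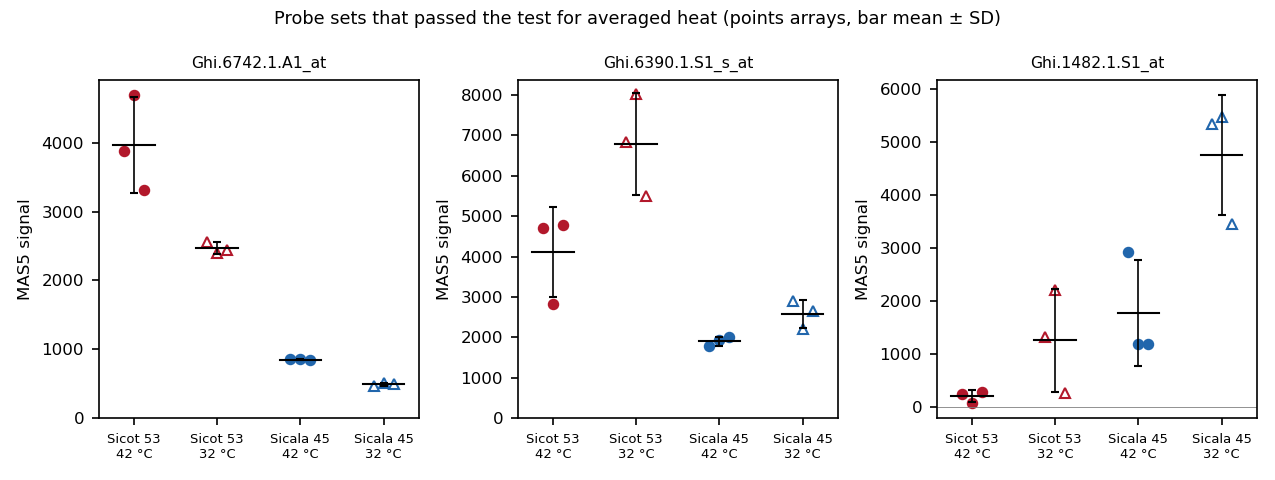
MAS5 signals (y axis, linear) on the 3 arrays of each group (points), with the mean and SD (bars), for the 3 probe sets that passed the test for averaged temperature. Ghi.6742.1.A1_at was higher at 42 °C in both cultivars; Ghi.6390.1.S1_s_at and Ghi.1482.1.S1_at were lower, and for Ghi.1482.1.S1_at the temperatures overlap in Sicot 53.

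Among those that did not pass, Ghi.4471.1.A1_at had the largest negative change (-0.70 ± 0.38, limma adjusted p = 0.282), and Ghi.5120.1.A1_at (+0.62 ± 0.26, adjusted p = 0.155) and Ghi.1492.1.S1_at (+0.56 ± 0.21, adjusted p = 0.119) the largest positive ones. Leaving out single arrays gave 1 to 3 calls among the 40, against 760 to 1675 among all 16820 tested. Of the 40, Ghi.6742.1.A1_at was called each time. Without replicate 1 or replicate 2 of either cultivar at 32 °C, or replicate 2 or 3 of Sicala 45 at 42 °C, 1 was called. Scaling to the poly-A spikes gave 14 calls, all lower at 42 °C, where 6160 of 16820 were called in all. Array weights gave 6 calls among the 40, where 2954 of 16820 were called in all.

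For the cultivar contrast itself, which the choice of members used, limma called 32 of 16820 probe sets when averaged over temperatures (0.19%), and 31 of these were among the 40, 15 higher in Sicot 53 (0.0892% of all tested were called higher) and 16 lower (0.101%). At 42 °C it called 18 (0.107%) and at 32 °C 18 (0.107%), and all of them were among the 40, with 15 called at both. These counts follow from the choice of members and are a description. The remaining 9 of the 40 met the choice by size and separation without an adjusted p under 0.05 in the averaged contrast.

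The members closest to the limit of 1 log2 unit, each given as its difference at 42 °C and then at 32 °C, were Ghi.5387.1.A1_at (-1.09 at 42 °C and -1.03 at 32 °C), Ghi.6670.1.A1_s_at (-1.06 and -1.09) and Ghi.6390.1.S1_s_at (+1.06 and +1.38). Just outside were Gra.2284.2.S1_s_at (+0.97 and +1.06), GhiAffx.48251.1.S1_at (-1.998 and -0.88) and Ghi.6748.1.A1_at (+1.55 and +0.88). The lowest mean signal among the 40 was 61.7, that of GhiAffx.53815.2.A1_at, and 3 more probe sets would have entered without the minimum of 50, at means of 49.3, 44.5 and 44.1.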

How the data were processed

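Total RNA from leaves was obtained with a hot borate extraction and biotin-labelled, per the labels' protocols. The deposited intensity values were made by the authors with MAS5, per the submitters' processing notes, with no version given. They are linear signals for 24132 rows on 12 arrays, and the mean of each array after trimming 2% at either end was 500.3 to 500.4. Groups were read from the titles, and 0 pairs of arrays held identical values.

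From these, log2(signal + 16) was computed. A linear model of the 4 groups was fitted to the 16820 non-AFFX probe sets left after the dimmest 30% by mean log2 value were dropped (limma 3.58.1 in R 4.3.3, intensity trend, two-sided, Benjamini-Hochberg over all tested), and tested on simulated data. All 40 members passed the filter. Named members were the 2 with a gene symbol, the 10 largest differences per direction, those called for temperature, those nearest the limit, the 3 brightest per direction and those sharing an ID stem or gene. The members and lists were chosen with earlier results of these data known. No product names were held, so the planned classes by product were not made. Gene names come from the platform annotation and Gossypium_hirsutum_v2.1. Alternatives covered scaling, pseudocount, filter, trend, array weights, the replicate block and each array left out, and, added after the data were seen, spike scaling and leaving out 2 arrays of high ubq11 ratio.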

Additional observations from a re-analysis of the deposited data

How the results depend on the processing

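The number of members was 39 to 44 when single arrays were left out, with 36 to 40 of the 40 kept. Under the other alternatives it was 32 to 51. Exceptions were a higher minimum of the mean signal (26) and a difference of at least 2 log2 units (20). Spike scaling gave 46 members, of which 36 were among the 40. Under every scaling, pseudocount and array set run, all 40 kept the sign of their cultivar difference at both temperatures, though a pseudocount of 64 moved 40 of the 80 differences by more than the pooled SD. Members called for averaged temperature numbered 1 to 3 with single arrays left out, 6 with array weights and 14 with scaling to the poly-A spikes. Over all probe sets, calls for averaged temperature were 1481 as reported, 760 to 1675 with single arrays left out (927 or fewer without replicate 2 or 3 of Sicot 53 at 42 °C, replicate 1 of Sicot 53 at 32 °C, or replicate 1 or 2 of Sicala 45 at 32 °C), 2954 with array weights, 6160 with spike scaling and 780 without the 2 arrays of high ubq11 ratio. Array weights gave 61 calls for the averaged cultivar difference (24 to 37 with single arrays left out), 30 at 42 °C (15 to 21) and 35 at 32 °C (13 to 20), against 32 averaged, 18 at 42 °C and 18 at 32 °C as reported. The difference between temperature changes had 0 calls, and 0 to 1 with single arrays left out (1 without replicate 3 of Sicala 45 at 42 °C). The cause of these shifts was not tested. Correlations of deviations between same-numbered arrays lay between -0.48 and 0.46, and the replicate numbers were not taken as pairs. Between the cultivars at 42 °C they were 0.41, 0.39 and -0.16 for replicates 1, 2 and 3, and at 32 °C -0.12, 0.45 and 0.36. Pairing of the cultivars within a temperature was not tested. The replicate block, which ties a number across both temperatures, gave 1316 calls for averaged temperature, 2 of them members. It gave 28 calls for the averaged cultivar difference, 15 at 42 °C, 16 at 32 °C and 0 for the difference between temperature changes. With 3 arrays per group, dim probe sets have only a rough level.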

Other observations

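Only 1 probe set met the same demands with opposite signs at the temperatures. GraAffx.29549.1.A1_x_at read 3.02, 47.2 and 16.8 in Sicot 53 against 69.1, 75.1 and 169 in Sicala 45 at 42 °C, and 36.1, 85.3 and 70.8 in Sicot 53 against 7.72, 8.52 and 17.3 in Sicala 45 at 32 °C, higher in Sicala 45 at 42 °C and higher in Sicot 53 at 32 °C, all at dim to moderate signals. With overlap allowed, 4 probe sets had opposite signs and 51 the same sign.

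Overlapping arrays alone kept 11 probe sets from membership. The cultivars of Ghi.359.1.S1_at and Ghi.1881.1.S1_at overlapped only at 32 °C, as did those of Ghi.10646.1.S1_s_at, GhiAffx.24351.2.S1_s_at and Ghi.4.1.A1_at. Ghi.359.1.S1_at read 1.54, 33.4 and 27.5 in Sicot 53 against 335, 1543 and 966 in Sicala 45 at 42 °C, and 60.7, 5.16 and 7.13 in Sicot 53 against 1029.7, 329 and 28.1 in Sicala 45 at 32 °C. In Sicala 45 at 32 °C its arrays ran from the Sicot 53 range to far above it. Ghi.1881.1.S1_at read 298, 282 and 225 in Sicot 53 against 17.4, 49.4 and 149.5 in Sicala 45 at 42 °C, and 337, 399 and 361 in Sicot 53 against 4.81, 66.9 and 358 in Sicala 45 at 32 °C, with replicate 3 of Sicala 45 at 32 °C inside the Sicot 53 range. The same array was the highest of its group for the member GraAffx.1666.1.A1_s_at, which read 345, 358 and 223 in Sicot 53 against 40.3, 49.9 and 105 in Sicala 45 at 42 °C and 283, 358 and 305 in Sicot 53 against 29.6, 52.7 and 234 in Sicala 45 at 32 °C. These probe sets were picked out after their values were seen.

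The 1 probe set called by limma for the averaged cultivar difference that was not a member was GhiAffx.47743.1.S1_x_at (adjusted p = 0.0448), at 284, 226 and 303 in Sicot 53 against 953, 1186 and 857 in Sicala 45 at 42 °C, and 219, 335 and 299 in Sicot 53 against 338, 364 and 810.1 in Sicala 45 at 32 °C. It missed membership by its difference of -0.70 log2 units at 32 °C, against -1.82 at 42 °C.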
